A study of Homo sapiens with 6 samples.

Results

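The tripartite motif (TRIM) and RING finger (RNF) genes were taken as every gene whose symbol starts with TRIM or RNF and then a number, in either of the deposited tables of a ribosome profiling experiment. This gave 95 genes, 37 TRIM and 58 RNF, of the 10779 genes listed in either table. Translational efficiency (TE), the ratio of ribosome-protected fragments (RPFs) to total RNA, was given for 65 of them, 22 TRIM and 43 RNF. Normalized ribosome occupancy, the number of in-frame RPFs at each codon after division by library size and mRNA abundance, was given for 90, and 60 genes were in both tables.

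The experiment used HEK293 cells, an established human embryonic kidney cell line, all treated with a control siRNA, and made 3 RPF and 3 total RNA libraries. Living cells were treated briefly with 100 µg/ml cycloheximide, which stops ribosomes on the mRNA, and the drug was kept at that level in the wash and in the lysis buffer. The methods state that the preparation was repeated for each of the 3 replicates but not whether each used separately grown cells, so p-values measure the spread between these preparations. The study asked how the RNA helicase eIF4A2 represses mRNAs, and these tables hold no second condition, so every comparison is between genes. Of 8 genes listed as HEK293 markers, 7 had occupancy and 6 had a TE, whereas PTPRC, ALB, MYOD1 and CDH5, which mark other cell types, were in neither table and COL1A1 was in both.

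Most of these proteins are E3 ubiquitin ligases. A ubiquitin molecule is activated by an E1 enzyme, passed to an E2 conjugating enzyme and then placed on a substrate with the help of an E3. The RING finger is a small domain in which cysteines and histidines hold zinc and which binds the loaded E2. In TRIM proteins it stands at the N terminus before B-box and coiled-coil parts, and in RNF proteins it is joined to many other domains, among them membrane anchors and ubiquitin-binding motifs.

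Deposited occupancy values combine the 3 replicates, but each value is a sum of whole reads with a different worth in each replicate, and all 22172 values above 0 of the 90 genes could be split into such reads. They came to 215494 in-frame reads, of which 209940 were in the coding sequence (CDS), 5127 upstream of it in the 5′UTR and 427 behind it in the 3′UTR. The number per gene had a median of 1246 and ran from 44 in RNF182 to 44262 in TRIM28. The replicates behind these reads carry no number, so they are called read classes 1 to 3, in the order of the worth of 1 read, and shares of reads are given as the mean ± SD of the 3.

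The TE of the 65 genes spanned 116-fold, from 0.0264 in RNF10 to 3.05 in RNF122, and had a median of 0.337 against 0.385 over all 8121 genes. Each gene was compared with the median of the table by limma on log2(TE + 0.01), with Benjamini-Hochberg adjustment over all genes. By this test 53 of the 65 genes (81.5%) differed from the median at an FDR of 0.05, against 89.3% of all genes. A higher TE was called in 21 (32.3%, against 44.7% of all genes) and a lower TE in 32 (49.2%, against 44.6%). The difference between replicates was small beside that between genes, the SD over replicates having a median of 0.10 (log2) and the SD over the 65 genes being 1.25. Of 43 RNF genes 13 were higher and 24 lower, with a median TE of 0.308, and of 22 TRIM genes 8 were higher and 8 lower, with a median of 0.366. Apart from the 116-fold span, folds against the median and between genes are ratios of TE + 0.01. They understate ratios of TE itself, most of all where TE is low.

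**Figure D1:**
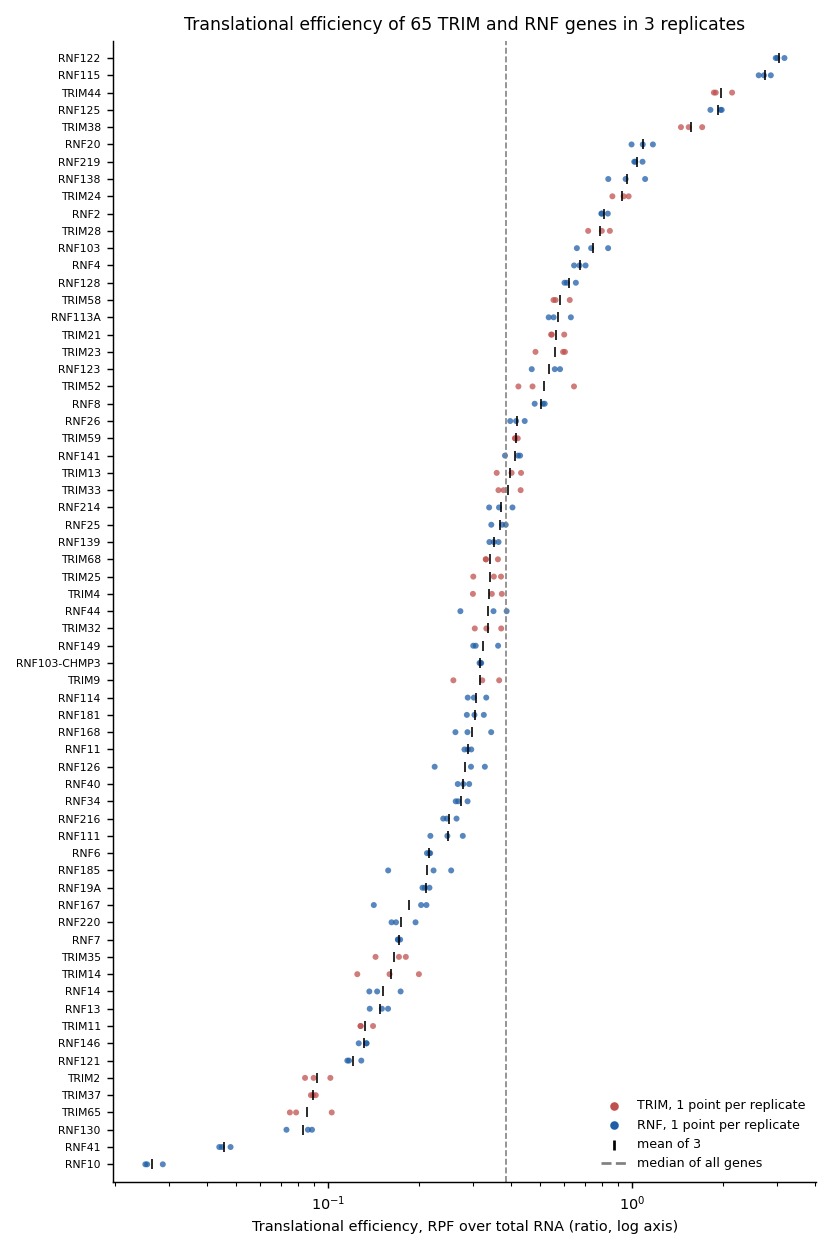
TE of the 65 TRIM and RNF genes in HEK293 cells, on a log axis, with 1 point per replicate, a tick at the mean and genes in the order of the mean. The dashed line is the median of all 8121 genes, 0.385. RNF122 and RNF115 stand at the top at about 3, and RNF41 and RNF10 stand apart at the bottom.

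RNF122, a small ligase with a membrane anchor, had a TE of 3.18, 3.01 and 2.97 in replicates 1, 2 and 3, which was 7.79-fold above the median (log2 2.96 ± 0.051 SE, limma adjusted p = 1.4e-06). RNF115, a ligase that acts on membrane traffic, had 2.72, 2.61 and 2.87. The 3 values of RNF122 lay above all 3 of RNF115, and those of RNF115 lay above all of TRIM44, at 1.89, 1.86 and 2.14. TRIM44 is an unusual family member that has a B-box but no RING finger. RNF125, which ubiquitinates the RNA sensor RIG-I, had 1.96, 1.81 and 1.98. Its values overlapped those of TRIM44, and another annotated gene holds 71.2% of its CDS 30-mers, so reads of the pair may be mixed. TRIM38, a regulator of innate immune signalling, followed at 1.54, 1.45 and 1.70. After it came RNF20, at 1.17, 0.998 and 1.09, and RNF219, listed as OBI1 in GENCODE and known for ubiquitination at replication origins, at 1.03, 1.02 and 1.08. RNF138 (0.966 ± 0.135, SD, n = 3), TRIM24 (0.926 ± 0.0578) and RNF2 (0.808 ± 0.0222) completed the 10 highest genes. RNF138 shares 29.6% of its CDS 30-mers with a pseudogene, RNF138P1.

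At the other end, RNF10, which ubiquitinates proteins of the small ribosomal subunit, had a TE of 0.0251, 0.0287 and 0.0254. As a ratio of TE + 0.01 that is 0.0925 times the median (log2 -3.43 ± 0.055 SE, limma adjusted p = 1.3e-06). The ratio of TE without the added 0.01 is lower still. Its mean TE lies at percentile 0.111 of all 8121 genes. RNF41, also known as NRDP1, a ligase that lowers the receptor ERBB3, had 0.0448, 0.0440 and 0.0479, with no overlap with RNF10. RNF130, an anchored ligase with a protease-associated domain, had 0.0731, 0.0887 and 0.0860, above all values of RNF41. TRIM65 (0.0750, 0.103 and 0.0787), TRIM37 (0.0880, 0.0894 and 0.0913) and TRIM2 (0.102, 0.0842 and 0.0898) overlapped with each other and with RNF130. TRIM2 shares 93.3% of its CDS 30-mers with another annotated gene. RNF121 (0.121 ± 0.00708), RNF146 (0.131 ± 0.00439), TRIM11 (0.132 ± 0.00733) and RNF13 (0.149 ± 0.0104) were the next higher genes. RNF146 reads poly-ADP-ribose marks, and RNF13 and RNF121 are anchored in membranes. Of the 64 steps from one gene to the next in the order of mean TE, 10 were free of overlap between the 3 values of the neighbours, 3 of them among the 5 highest genes and 2 among the 3 lowest. Such steps were not counted in other sets of genes, so this number has no background beside it.

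Replicates differed most in RNF185, with a TE of 0.158, 0.223 and 0.255 (SD 0.34 on the log2 scale). TRIM14 (0.199, 0.125 and 0.160), TRIM52 (0.424, 0.471 and 0.645), RNF167 (0.142, 0.203 and 0.211) and RNF126 (0.328, 0.296 and 0.225) followed. The call of TRIM52 was lost without replicate 2 (adjusted p = 0.062) or replicate 3 (adjusted p = 0.051).

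The genes were also read by role, in lists that were not tested as groups, beside the 44.7% of all genes called higher and the 44.6% called lower. Of 13 genes listed for chromatin and DNA damage, 12 had a TE, with 8 higher (66.7%), 3 lower (25.0%) and a median of 0.623, against 0.385 over all genes. TRIM24, TRIM28 and TRIM33 belong to one family of transcriptional cofactors with a PHD finger and bromodomain. TRIM28, the corepressor recruited by KRAB zinc finger proteins, had 0.797, 0.847 and 0.718, all below the 3 values of TRIM24 (0.863, 0.976 and 0.940). TRIM33 had 0.431, 0.364 and 0.379 and did not differ from the median of the table (adjusted p = 0.73). RNF20 and RNF40 form the complex that places ubiquitin on histone H2B. RNF20 exceeded RNF40 (0.292, 0.279 and 0.268) by 1.92 ± 0.10 on the log2 scale (SD, n = 3), or 3.78-fold, in 3 of 3 replicates. RNF2, the catalytic subunit of Polycomb complex 1, was 2.08-fold above the median. RNF8, which starts ubiquitination at DNA breaks, had 0.479, 0.510 and 0.517, and RNF168, which acts after it, had 0.345, 0.263 and 0.288, a difference of 0.74 ± 0.24. RNF4 (0.673, 0.646 and 0.704) and RNF111 (0.278, 0.217 and 0.247), both directed to SUMO-bearing proteins, differed by 1.42 ± 0.15, but 67.1% of the CDS 30-mers of RNF4 occur in other genes.

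Of 6 measured genes with links to the ribosome or to RNA, 0 were higher and 3 were lower (50.0%, against 44.6% of all genes), with a median TE of 0.244. These 3 were RNF10, RNF14 and TRIM2. RNF14, which acts on stalled translation factors, had 0.137, 0.145 and 0.174, below all values of its partner in that pathway, RNF25 (0.375, 0.385 and 0.345). TRIM32 is of interest because its protein was studied together with eIF4A2. Its TE was 0.332, 0.372 and 0.304, or 0.878 times the median. Its adjusted p of 0.051 was just short of the threshold and passed it in 4 of 8 other settings, with 0.047 for a pseudocount of 0.1. Of 8 listed ligases with RING-between-RING architecture, in which ubiquitin is carried on the ligase itself, 3 had a TE, too few to set against the 44.6% of all genes, and each was called lower. These were RNF14, RNF19A (0.205, 0.208 and 0.216) and RNF216 (0.265, 0.240 and 0.246). RNF14 was on both lists.

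Membrane-anchored ligases ran from 0.0826 in RNF130 to 3.05 in RNF122. Of 13 measured, 3 were higher (RNF122, RNF103 and RNF128), or 23.1% against 44.7% of all genes, 6 were lower (46.2%, near the 44.6% of all genes) and 4 did not pass the test, with a median TE of 0.352. RNF128, which limits T-cell activation, had 0.611, 0.601 and 0.654. RNF13 and RNF167, paralogs with the same domain order, overlapped (0.151, 0.137 and 0.158 against 0.142, 0.203 and 0.211). RNF130 and RNF149 share that domain order too and differed 3.60-fold, with 0.363, 0.301 and 0.307 in RNF149. TRIM13 (0.432, 0.359 and 0.402) and TRIM59 (0.414, 0.422 and 0.413) overlapped, and 78.1% of the CDS 30-mers of TRIM59 are shared with another annotated gene. Among 7 measured genes of innate immunity 3 were higher (TRIM21, TRIM38 and RNF125) and 3 lower (TRIM14, TRIM65 and RNF114), or 42.9% each way, near the shares of all genes. TRIM21, a cytosolic antibody receptor, had 0.543, 0.546 and 0.599. TRIM25, which activates RIG-I, exceeded TRIM65, which acts on the sensor MDA5, 3.69-fold, with 0.301, 0.371 and 0.352.

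Of 31 pairs of paralogs or partners listed, both genes had a TE in 15, and in 13 (86.7%) the 3 values of one gene lay above those of the other. This is near the background, since 90.2% of all pairs of genes in the table did not overlap. With 3 values against 3, an exact permutation test that ignores the pairing by replicate cannot go below p = 0.10. One that keeps the pairing has a higher limit still, so pairs were not tested. The difference was largest, at 10.4-fold, between RNF10 and RNF25, followed by 9.47-fold between the paralogs RNF115 and RNF126.

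**Figure D2:**
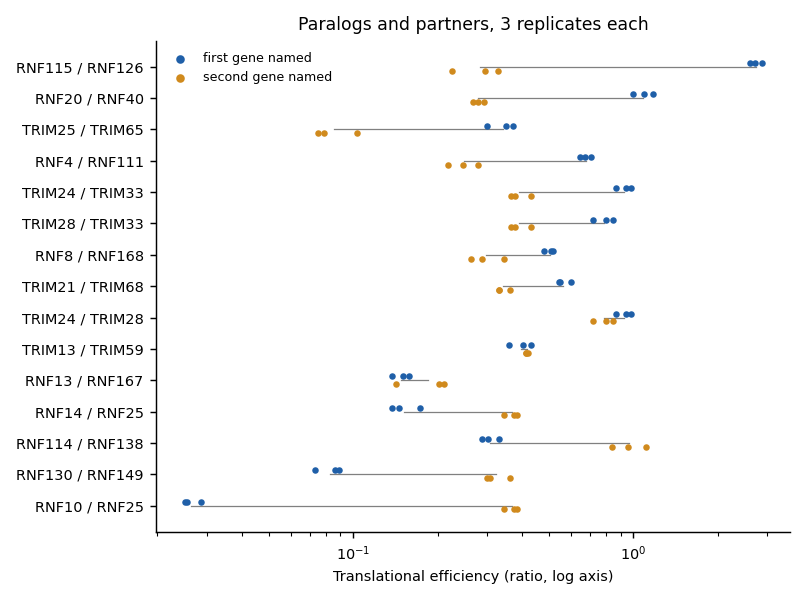
TE of 15 pairs of paralogs or partners on a log axis, 3 points per gene, with a line between the means. The points overlap in RNF13 and RNF167 and in TRIM13 and TRIM59, and not in the other 13 pairs.

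Of 31 measured genes from a list of E1 and E2 enzymes, complex partners and other ligases, 22 had a higher TE (71.0%, against 44.7% of all genes) and 8 a lower TE (25.8%, against 44.6%), with a median of 0.920. RBX1, the small RING protein of cullin ligases, had 8.10 ± 0.190 (SD, n = 3), whereas its homolog among the RNF genes, RNF7, had 0.170, 0.170 and 0.173. The E2 enzymes UBE2D1 (3.76 ± 0.254) and UBE2L3 (2.55 ± 0.0425) were higher, UBE2D3 (0.376 ± 0.0205) did not differ from the median and UBE2J2 (0.103 ± 0.0276) was lower. Of 29 measured E2 genes, on the list or not, 24 were higher (82.8%) and 3 lower (10.3%). Many of the higher genes of the list are E2 enzymes. Ligases outside the families were on both sides, with RLIM at 0.920 ± 0.00642, ZNF598, which marks collided ribosomes, at 0.141 ± 0.00122 and MDM2, which acts on p53, at 0.0772 ± 0.00822. Median TE was 1.03 over 29 ubiquitin E2 genes, 0.282 over 32 USP deubiquitinases and 0.385 over 56 cullin, F-box and KLHL genes. No test was run between these groups and the TRIM and RNF genes.

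Reads in the 5′UTR of RNF10 carried the clearest single pattern. The in-frame letters upstream of its start codon hold a short upstream open reading frame (uORF) of 4 codons with the stop, 41 codons before the main start. It lies in exon 1 of 17 on the plus strand. The uORF is shown with some bases before it (chr12:120972486-120972503, GRCh37, GENCODE 44), its ATG and stop in capitals, beside the main start (chr12:120972603-120972623).

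RNF10 uORF: ggaaaaATGtcgccaTGA

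RNF10 main start: aggcccccgttgATGccgctg

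Of the in-frame reads of RNF10, 50.3 ± 2.46% lay in the 5′UTR (SD, n = 3), with 418, 471 and 261 reads there and 438, 415 and 272 in the CDS of 812 codons. The median over the 90 genes was 0.845%, and RNF10 stood at percentile 99.5 of all 9570 transcripts by the share of occupancy in the 5′UTR. The upstream ATG held 914 of these reads (308, 408 and 198 in the read classes) and the third codon of the uORF held 191. Together the 4 codons held 1112 of the 1150 reads, or 96.4 ± 1.33%. The 17 codons nearest to the main start held no in-frame read. Mean occupancy in the CDS was 0.00510 per codon, the second lowest of the 90 genes after RNF43. RNF10 also had the lowest TE of the 65 genes, and 97.7% of the CDS 30-mers of RNF43 occur in another annotated gene.

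Other genes with an upstream start in the frame of the CDS had fewer reads on it. Reads were placed on the letters of the 5′UTR by counting codons back from the main start. Matched 5′UTRs often differed in length from those of the table, so some reads may belong to other letters, which was not tested. In the 88 genes whose CDS matched a GENCODE transcript, 27 in-frame upstream ATGs lay in 18 genes within the stretch covered by the table. All upstream ATGs were closed by a stop before the main start, 17 had a read within their frame and 13, in 10 genes, had at least 10. Some frames share a stop, as those 74 and 48 codons before the start of RNF168 do, so reads of the inner frame count in both. No such count was made over other transcripts. RNF141 had 64 reads (29, 23 and 12) on an ATG that is followed at once by a stop, 14 codons before its main start and across the junction of exons 1 and 2 of 6 (chr11:10555742-10562669, minus strand). A further 3-codon frame 21 codons before the start (chr11:10562676-10562690, exon 1) held 30 reads. RNF14 had 52 reads (21, 17 and 14) in a frame of 5 codons (chr5:141350356-141350376, plus strand, exon 2 of 9), 18 of them on the ATG. These are examples and not the top of the order. The places in brackets are those of the sequences printed, which begin before the ATG. RNF213 had 60 reads in a frame of 15 codons, with 0 on the ATG, and RNF44 had 30, with 21 on the ATG.

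RNF141 start-stop: gaaactATGTGA

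RNF141 upstream frame: tgcgcgATGcctTGA

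RNF14 upstream frame: gaataaATGggatttgcaTGA

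RNF141 had 9.86 ± 1.30% of its in-frame reads in the 5′UTR and a TE near the median (0.383, 0.422 and 0.429, adjusted p = 0.16), and RNF14 was among the genes of lower TE. Across the 60 genes with both values the share of reads in the 5′UTR and TE had a Spearman rho of -0.08.

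Reads in the 5′UTR also stood at single codons with no in-frame ATG. Over the 17 codons nearest to the start, RNF216 had the highest occupancy of the 90 genes, at 0.226 per codon, and 461 of its 551 reads in the 5′UTR (187, 175 and 99) were at 1 codon, 16 before the start (chr7:5800737-5800754, minus strand, exon 2 of 17). The letters ATG begin at the last base of that codon, out of frame, as shown with the codon in capitals. The place in brackets is that of the whole sequence printed.

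RNF216: tggtcaCCAtgtttagat

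TRIM28 had 437 of its 723 reads in the 5′UTR at the codon 59 before its start (199, 156 and 82) and 165 at the next codon. All 723 were 1.59 ± 0.223% of its in-frame reads, since its CDS held 43537. TRIM32 had 0.0742 per codon in the last 17 codons, with 36 of 81 reads at the codon 15 before the start. TRIM36 had 0.0697, and the read numbers at its codons 48 and 8 before the start were the same in each class (3, 6 and 1). Whether the same reads are listed at both places was not tested. RNF141 had 0.0648 and TRIM13 had 0.0281, the latter from few reads (35 in its whole 5′UTR). The median over the 81 genes with a 5′UTR of at least 17 codons in the table was 0.000647, and 39.5% had no read there. Over all 8536 transcripts with such a 5′UTR the median was higher, at 0.00145, and 32.4% had none.

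**Figure D3:**
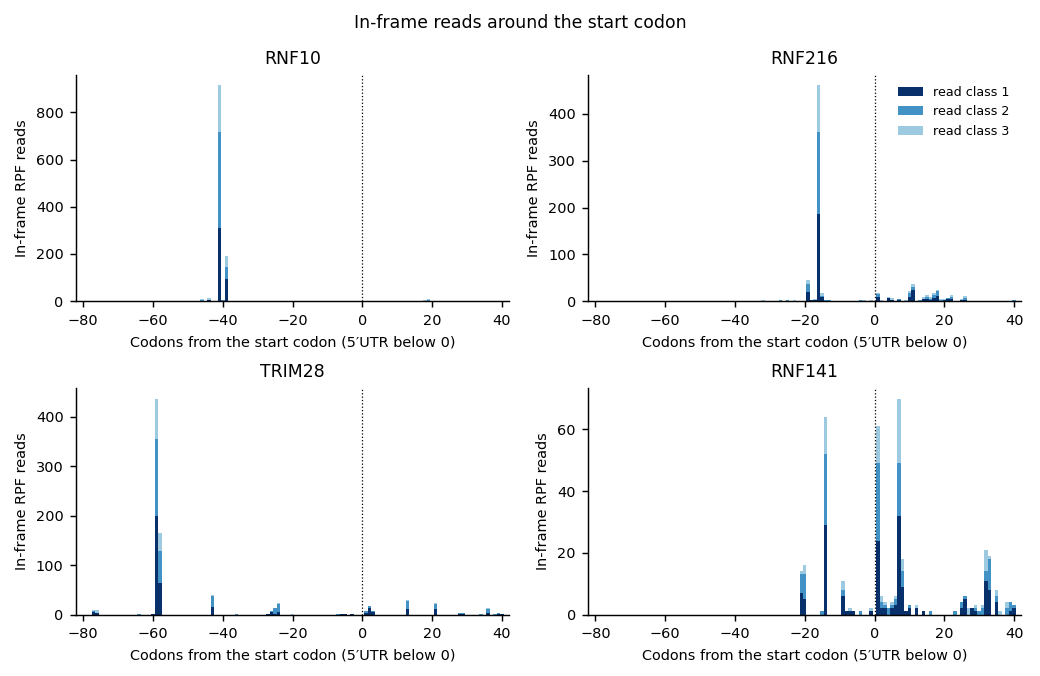
In-frame RPF reads from 80 codons before to 40 codons after the start codon (dotted line) in RNF10, RNF216, TRIM28 and RNF141, stacked by read class. RNF10 has 914 reads at the upstream ATG and few in the first codons of the CDS, RNF216 has 1 tall codon and TRIM28 has 2 neighbouring ones, with 437 and 165 reads, without an in-frame ATG, and in RNF141 the upstream ATG and the main start hold reads on one scale.

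RNF152, a ligase of lysosomes, had 31.6 ± 1.26% of its reads in the 5′UTR, from 50 reads there and 108 in the CDS. RNF185, which acts in degradation at the endoplasmic reticulum, had 24.0 ± 9.71%, with 12.8% in the lowest and 29.9% in the highest class, and 47.9% of its CDS 30-mers occur in another annotated gene. RNF146 had 18.1 ± 2.91%, spread over many codons, of which the highest held 68 of 269 reads. In all, 8 of the 90 genes had more than 10% and 46 had less than 1%, which was not counted over all transcripts. The 3 genes with the most reads there (RNF10, TRIM28 and RNF216) held 47.3% of the 5127. By share of occupancy in the 5′UTR the median was 0.874% in the 90 genes, against 0.364% over all 9570 transcripts. The 45 genes with an ATG anywhere in the annotated 5′UTR had a median of 2.86% of their in-frame reads there, and the 43 without had 0.132%. The 5′UTR was also longer in the former, with a median of 317 nt against 93 nt, and the part of length in this difference was not tested. The ATGs were searched in the matched GENCODE 5′UTR, which was shorter than the 5′UTR of the table by 3 nt or more in 27 of the 43 genes without an ATG and in 19 of the 45 with one. The bases upstream of it were not searched, so genes counted as without an ATG, RNF125 and RNF130 among them, may hold one there.

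The 3′UTR held few reads. RNF135 had 10 reads there (3, 4 and 3), or 6.55 ± 1.82% of its in-frame reads, and TRIM5, which restricts retroviruses, had 23, or 2.97 ± 1.32%. RNF185 (2.83 ± 2.17%), RNF125 (2.24 ± 0.708%) and TRIM68 (1.87 ± 2.61%) followed, and the last does not stand above its own spread. The median over the 90 genes was 0.105%. By share of occupancy in the 3′UTR the median was 0.111% in the 90 genes, against 0.0165% over all 9570 transcripts. No occupancy was there in 34.4% of the 90 genes and in 42.9% of all transcripts.

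The bases around the start codon were read for both ends of the TE order. A purine 3 bases before the ATG together with a G after it, the favoured context, was present in 55 of 87 genes with at least 12 bases of 5′UTR. It was present in 6 of the 10 genes of highest TE and in 4 of the 9 matched genes among the 10 of lowest TE. The start of RNF115 (chr1:145611228-145611248, plus strand) and that of RNF41 (chr12:56607823-56607843, minus strand) are shown with the ATG in capitals.

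RNF115 start: cggagggcaaaaATGgcggag

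RNF41 start: cagtgatgagacATGgggtat

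Mean occupancy over the CDS had a median of 0.0365 per codon in the 90 genes, against 0.0450 over all 9570 transcripts. It was 0.0424 in the 35 TRIM and 0.0344 in the 55 RNF genes. Reads stood more toward the end of the CDS. In the first 75 codons the median was 0.0205 and in the last 75 codons 0.0359, whereas over all transcripts with more than 100 codons it was 0.0388 and 0.0399. The first window was the lower one in 57 of 90 genes (63.3%), against 50.7% of all transcripts. TRIM28 had 0.00272 in the first and 0.0469 in the last window. RNF216 had the opposite order, with 0.0302 and 0.00397.

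TE and CDS occupancy are different ratios to mRNA abundance and had a Spearman rho of 0.64 over 60 genes and 0.69 over the 6912 genes in both tables. Both measures use the same RPF and total RNA libraries. Their ranks differed most in RNF115, which stood at percentile 94.7 by TE and 45.5 by occupancy (0.0485 per codon). RNF111 had the opposite gap, percentile 32.6 by TE and 81.5 by occupancy (0.105 per codon). TRIM13 had the highest CDS occupancy of the 90 genes, 0.151, at percentile 90.4, and a TE at percentile 50.9 among those genes. RNF219 (81.0 and 45.1) and RNF26 (53.1 and 17.3) ranked higher by TE. TE had a Spearman rho of -0.05 with the length of the CDS and of -0.24 with its GC content.

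Single codons held a large part of the CDS reads in a few genes. The highest codon had a median share of 5.03% of CDS occupancy in the 90 genes and 4.95% in all transcripts, and the share was smaller in longer CDSs (Spearman rho -0.69 over the 90). RNF34, a ligase that acts on caspases and p53, had 14.5 ± 2.26% of its CDS reads at codon 229 of 373, with 12.3% in the lowest and 16.8% in the highest read class. RNF149 had 13.1 ± 2.64% at codon 266 of 401, RNF11 10.8 ± 1.46% at codon 125 of 155 and TRIM44 10.6 ± 1.57% at codon 219 of 345, all lengths counted with the stop. RNF152 had 10.3 ± 5.93% at codon 199 of 204, from 12 reads. The codon was the highest in all 3 read classes in RNF34, RNF149 and TRIM44 and in 2 of 3 in RNF11. The sequences are shown for the 4 genes with more than 400 reads, with the highest codon in capitals.

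RNF34 (chr12:121858084-121858110, plus strand, exon 4 of 6): gatgacgacgatGATgaggatgatgat

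RNF149 (chr2:101905488-101905514, minus strand, exon 4 of 7): attgatgttgatGCTgaaaattgtgca

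RNF11 (chr1:51736890-51736916, plus strand, exon 3 of 3): tatcacctggacTGTatagatgactgg

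TRIM44 (chr11:35685302-35685328, plus strand, exon 1 of 5): ctagacgaagccTTTgaagaattaaga

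In RNF34 the codon lies in a run of codons for aspartate and glutamate that fills the 27 bases shown. In RNF149 it lies 3 codons before the first cysteine of the RING finger, and in RNF11 it encodes a cysteine inside it.

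**Figure D4:**
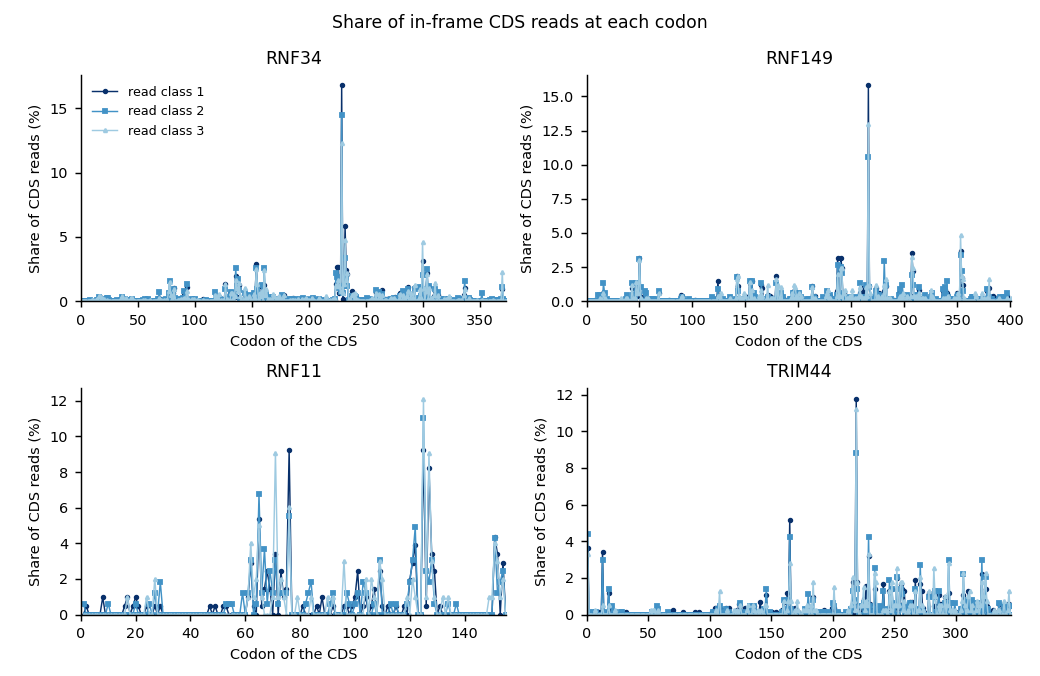
Share of the in-frame CDS reads at each codon of RNF34, RNF149, RNF11 and TRIM44, with a line per read class. The highest codon stands at about the same share in the 3 classes of RNF34, RNF149 and TRIM44, between 8.82% and 16.8%, while RNF11 has several codons of similar height.

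The RING finger was looked for as a spacing of cysteine and histidine codons, CX2CX(9 to 39)CX(1 to 3)HX(2 to 3)C or H, X2CX(4 to 48)CX2C, on the coding strand and in frame. It was found in 75 of the 88 matched genes, 27 of 34 TRIM and 48 of 54 RNF, and in 0.994% of 8655 matched genes outside the families. In all 27 TRIM genes the fifth ligand was a cysteine, and in the RNF genes it was a cysteine in 27 and a histidine in 21. The spacing was absent from TRIM44 and TRIM14, from the short listed form of RNF213 (1064 codons) and from RNF41, TRIM23, TRIM9, TRIM36, TRIM41, TRIM71, RNF144B, RNF185, RNF216 and RNF103-CHMP3. The last is a readthrough gene that shares 82.3% of its CDS 30-mers with CHMP3, so its values cannot be told apart from those of CHMP3. Fingers with another spacing are missed by this search, so absence of the spacing does not show absence of a finger. The centre of the finger lay at a median of 7.57% of the CDS in TRIM genes, all within the first 24.5%, and at 67.6% in RNF genes, between 4.95% and 96.6%.

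Occupancy over the RING codons was lower than over the other codons of the same CDS in 23 of 27 TRIM genes and 31 of 48 RNF genes. The median ratio was 0.458 in TRIM and 0.779 in RNF genes. Counted over reads, the ratio was below 1 in all 3 classes in 21 TRIM and 27 RNF genes and above 1 in all 3 in 3 and 13. In TRIM33 it was 0.164 ± 0.0129 and in TRIM24 0.158 ± 0.0530, from 67 reads in each finger, and in TRIM28 0.294 ± 0.0590. TRIM11 had 1.92 ± 0.648 and TRIM39 1.68 ± 0.723, above 1 in every class, with 68.5% of the CDS 30-mers of TRIM39 shared with the readthrough gene TRIM39-RPP21. The same span was also read in genes without regard to a finger. Over codons 16 to 59, the median span of the TRIM finger, the ratio to the other codons was taken in transcripts of more than 118 codons. Its median was 0.440 in 35 TRIM genes, 0.674 in 54 RNF genes and 0.858 in 9099 other transcripts. It was below 1 in 88.6% of these TRIM genes, 74.1% of these RNF genes and 57.7% of the other transcripts. No test was run on this difference, and no share over other genes was taken at the places of the RNF fingers.

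Among RNF genes the ratio was highest in RNF157, at 3.07 ± 0.791, but from 23 reads in the finger. RNF19A had 2.93 ± 0.343 over the first of its RING fingers, and RNF7, in which the finger fills codons 47 to 102 of 114, had 2.58 ± 0.307 from 889 reads. RNF5 had 2.16 ± 0.401, with 62.3% of its CDS 30-mers in the pseudogene RNF5P1, and RNF11 had 2.06 ± 0.176. The ratio was low in RNF168 (0.139 ± 0.0556) and in RNF40 (0.286 ± 0.0271), whose finger stands at the C terminus. Its partner RNF20 had 0.518 ± 0.0680 over a finger at the same end.

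**Figure D5:**
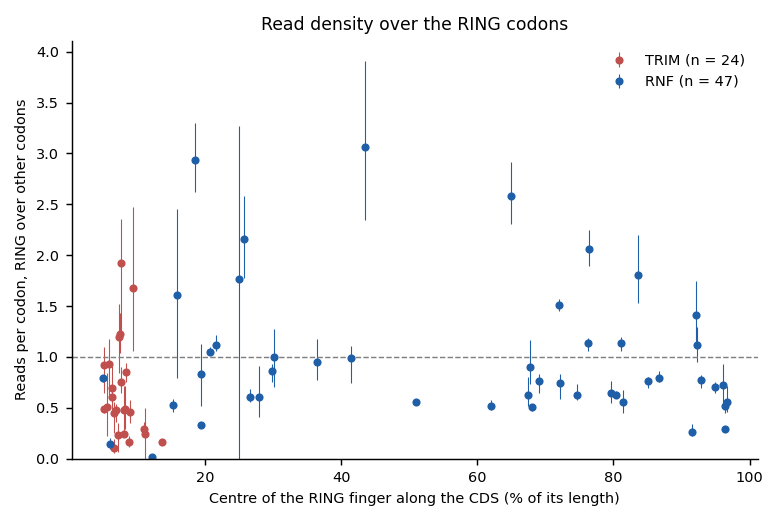
Reads per codon in the RING finger over those in the other codons of the CDS (y axis, 1 at the dashed line) against the centre of the finger along the CDS (x axis, % of its length), for 24 TRIM and 47 RNF genes with at least 100 CDS reads and a read in the finger. Points are means and bars run from the lowest to the highest of the 3 read classes, and most TRIM genes stand below 1 near the start of the CDS.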

How the data were processed

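Sources were processed data for 3 RPF and 3 total RNA libraries of HEK293 cells treated with control siRNA. Per the labels and methods, the authors trimmed reads (cutadapt 1.16), removed PCR duplicates, aligned RPFs with Bowtie 1.1.2 to the hg19 transcriptome and counted total RNA with HTSeq 0.9.1. For total RNA the labels list TopHat2 2.1.1 and the methods another aligner. The deposited TE values are a ratio of RPF to total RNA per replicate. How this ratio was scaled is not stated by the sources. The deposited occupancy values are in-frame RPF counts per codon, normalized by the authors for library size and transcript TPM with replicates combined, for the most abundant transcript of each gene.

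The genes and gene lists were chosen with earlier results of these data known. Named genes were the 10 highest and 10 lowest in TE, examples from the lists and pairs, TRIM32, and the 5 genes with the highest occupancy at the end of the 5′UTR, 3′UTR share, share in 1 codon (each with at least 100 CDS reads), SD of TE, and gap between ranks. Other genes are named where counts or sequences turned on them, after their values were seen.

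TE was tested with limma 3.58.1 (R 4.3.3) on log2(TE + 0.01) against the median of all values, at an FDR of 0.05. On data simulated for all 8121 genes, with the others set at the median, 178 of 200 genes moved by 1 on the log2 scale were recovered, with 6 false calls. In the real values 89.3% of all genes were called, so the simulated recovery does not carry over to them. Occupancy was split into whole reads of 3 worths within a tolerance of 1e-09, which gave the right total of reads in 500 of 500 simulated transcripts. The simulation did not check the reads of each class or codon. Each class of reads is taken to be 1 replicate. CDSs were matched to GENCODE 44 on GRCh37 by symbol and length (88 of 90, RNF219 through its newer symbol OBI1), and shared sequence was counted as CDS 30-mers found in transcripts of other genes. Sequences printed are those of GENCODE transcripts. No depth is given in the TE table. Calculations other than limma were run in Python 3.11.15 (pandas 2.3.3, scipy 1.17.1).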

Additional observations from a re-analysis of the deposited data

How the results depend on the processing

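Numbers of genes with a higher or a lower TE were 21 and 32, and under all 8 alternatives they stayed within 20 to 21 and 30 to 39, the last with the mean of the table in place of its median. With the replicate number as a block they were 21 and 32 too, and no call of a single gene changed. Without replicate 1, 2 or 3 the higher calls numbered 20 to 21 and the lower calls 30 to 32. RNF149 (adjusted p = 0.097 and 0.11), TRIM52 (0.062 and 0.051) and TRIM68 (0.13 and 0.18) lost their call without replicate 2 or 3, and TRIM9 lost it without replicate 1 (0.096) or 2 (0.13). TRIM32 gained a call without replicate 2 (0.026) and TRIM4 without replicate 1 (0.043). Against the mean, log2 values changed sign in RNF141 (-0.069), RNF26 (-0.040), TRIM13 (-0.12), TRIM33 (-0.14) and TRIM59 (-0.051). Without 1 replicate they ran from -0.015 to 0.11 in TRIM13 and from -0.049 to 0.067 in TRIM33, below 0 without replicate 1. None of these genes was called in either setting. The median TE of TRIM genes was 0.391 with only genes under 5% shared 30-mers, and 0.366 to 0.382 without each replicate. Medians over RNF and over all 65 genes moved by less than the SD between replicates. The median CDS occupancy of 0.0365 became 0.00246 with the median over codons, since many codons hold no read, and 0.0355 without the highest codon. The median over the last 17 codons of the 5′UTR, 0.000647, became 0.000731 over 10 codons and 0.000159 without the 5 codons next to the start. The RING ratio of all 75 genes, 0.708, moved by less than the SD between read classes.

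Values rest on few reads in TRIM61, TRIM7, TRIM56, RNF182 and RNF144B, each with under 100 CDS reads. Only in-frame reads are in the table, so upstream frames in the other reading frames are not measured, and shared sequence can move reads between a gene and its copies.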
